A study of Homo sapiens with 15 samples.

Results

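The genes described here are 10 enzymes and core partners that write, copy or erase methyl groups on DNA or place the Polycomb mark on histone H3: DNMT1, DNMT3A, DNMT3B, UHRF1, TET1, TET2, TET3, EZH2, SUZ12 and EED. They were taken by gene symbol from the 60649 genes listed in each library, each symbol stood on 1 row, and all 10 were among the 14061 genes tested. RNA had been sequenced from HSC-5, an established line of human cutaneous squamous cell carcinoma, in 15 libraries of 5 conditions with 3 biological replicates each. The control, sgNeg, carried an empty vector and is labelled WT. Guides sgPRMT5#1 and sgPRMT5#2 are labelled PRMT5 Knockout, and the pair sgWDR77#1 and sgWDR77#2 is labelled WDR77 Knockout; below, PRMT5KO and WDR77KO stand for the mean of both guides of a gene. For its competition assays, the study's methods describe guides delivered by lentivirus into cells expressing Cas9. Per the labels, all 15 libraries, the control included, came from cells treated with Neomycin. The series asked how PRMT5, an arginine methyltransferase, and WDR77, its binding partner, act together in squamous carcinoma. Reads on genes ranged from 5146711 to 6730428 per library. The lowest group median was 5203698 reads in sgWDR77#1 and the highest 6124306 in sgPRMT5#2. Replicate 1 of sgWDR77#1 stood apart from its group, at 13.7 and 19.4 against replicates 2 and 3 (chi-square per degree of freedom, near 1 for sampling noise alone), where all other replicate pairs gave 1.58 to 9.94.

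DNA methylation is laid down by DNMT3A and DNMT3B and copied after replication by DNMT1, which UHRF1 brings to half-methylated sites. TET1, TET2 and TET3 oxidize methylcytosine as the start of its removal. EZH2, SUZ12 and EED form the core of Polycomb repressive complex 2 (PRC2), which methylates lysine 27 of histone H3 and keeps developmental genes silent. The libraries measured RNA of these genes, not DNA methylation or the histone mark.

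The targeted genes were read in every library as a check of the labels. PRMT5 stood at 59.1, 49.6 and 67.8 CPM (a gene's share of its library's reads, scaled by TMM) in sgNeg, at 33, 35.8 and 41.4 in sgPRMT5#1 and at 44.2, 44.5 and 39.4 in sgPRMT5#2. All PRMT5 guide libraries lay below all sgNeg libraries, at log2 -0.67 (SE 0.132, adjusted p = 0.0057) for sgPRMT5#1 and log2 -0.45 (SE 0.13, adjusted p = 0.0114) for sgPRMT5#2. WDR77 stood at 125, 114 and 119 CPM in sgNeg, at 30.8, 52 and 53.3 in sgWDR77#1 and at 26.6, 24.9 and 22 in sgWDR77#2. WDR77 fell with sgWDR77#1 (log2 -1.43, SE 0.148, adjusted p = 2.01e-06) and with sgWDR77#2 (log2 -2.29, SE 0.165, adjusted p = 6.89e-09), all libraries of either guide lay below sgNeg, and the guides differed by -0.85 (adjusted p = 0.0157), a call lost with the compared groups alone and without sgWDR77#2 replicate 1 or 2 (adjusted p up to 0.177). A cut in the coding sequence need not lower RNA, so these levels check the labels and do not measure how much protein was lost. Exons of PRMT5 share 28.2% of their annotated length with an antisense gene and those of WDR77 share 25.1% with a gene on the same strand. These overlapping genes held 13 and 29 reads over all libraries. ATP5PB, on the opposite strand, shares 3.35% of WDR77's exon length (90 bases) and held 26046 reads, 326% of the count of WDR77, and the strand setting of the counting was not given.

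Of the squamous markers, 7 of 8 were tested, and their summed level ranged from 1.97e+03 to 2.93e+03 CPM over the 15 libraries, with KRT17 the most abundant at a mean of 928 CPM. KRT14 was near absent, at no more than 4 reads in any library. Markers of other cell types were low. Summed levels reached 16.2 CPM for fibroblast genes with COL1A2 at 0, 1.86 CPM for immune genes with CD3E at 0, 36.1 CPM for endothelial genes, nearly all from CDH5 at a mean of 20 CPM, and 7.48 CPM for melanocyte genes with TYR and DCT at 0. The endothelial sum was highest in sgWDR77#1 at 33.9 ± 2.44 CPM (SD, n = 3) against 21.4 ± 4.31 in sgNeg, where CDH5 averaged 31.7 and 18.5 CPM (log2 0.8, adjusted p = 0.00325) and VWF 2.03 and 2.85. In PRMT5KO against WDR77KO both endothelial genes tested were lower, CDH5 by -0.56 (adjusted p = 0.0021, and 0.0541 with guides pooled) and VWF by -1.41 (adjusted p = 0.0107), where 27.1% of all genes were called in either direction. Against sgNeg, VWF was lower in PRMT5KO as well (-1.9, adjusted p = 0.00233). The melanocyte gene PMEL was lower in PRMT5KO against sgNeg (-1.12, adjusted p = 0.0185) and against WDR77KO (-0.92, 0.0252), calls lost under some alternatives (up to 0.0821 and 0.101). The other melanocyte gene tested was not called in either comparison. The medians of these 2 genes were -0.46 and -0.34, so the other gene went the opposite way. COL1A1, the only fibroblast gene tested, was called lower with sgPRMT5#2 (log2 -0.65), where 14.7% of all genes were. That call was lost under 4 of 8 settings and without 7 of the 15 libraries in turn (adjusted p up to 0.19). The part of these genes in the results below was not tested. KRT5 was lower with every guide, with log2 fold changes from -1.27 in sgPRMT5#1 to -4.02 in sgWDR77#1, and KRT5, KRT6A and DSG3 were called lower in both PRMT5KO and WDR77KO (all genes 10.8% and 5.55%). SFN was higher in PRMT5KO (log2 0.42, adjusted p = 0.000558; all genes 12.0%) and KRT17 in WDR77KO (0.41, adjusted p = 0.00121; all genes 2.89%), a call lost with guides pooled (0.317). KRT17 rose only with sgWDR77#2, to 177% of sgNeg against 99.8% with sgWDR77#1, and the guides differed in every alternative (adjusted p up to 0.00892).

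By the GENCODE annotation of GRCh38, DNMT1 (ENSG00000130816) lies at chr19:10133342-10231286 and UHRF1 (ENSG00000276043) at chr19:4903080-4962154. DNMT3A (ENSG00000119772) lies at chr2:25227855-25342590 and DNMT3B (ENSG00000088305) at chr20:32762385-32809359. TET1 (ENSG00000138336) lies at chr10:68560337-68694487, TET2 (ENSG00000168769) at chr4:105145875-105279816 and TET3 (ENSG00000187605) at chr2:73984910-74108176. EZH2 (ENSG00000106462) lies at chr7:148807257-148884321, SUZ12 (ENSG00000178691) at chr17:31937007-32001038 and EED (ENSG00000074266) at chr11:86201212-86278813.

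In sgNeg, levels per kilobase of annotated exon (RPKM) spanned a wide range. SUZ12 was highest at 24.7 ± 1.88 RPKM (SD, n = 3), followed by UHRF1 at 16.1 ± 3.5, EED at 12.2 ± 1.07 and DNMT1 at 12.1 ± 1.46. TET3 followed at 8.02 ± 1.04, EZH2 at 6.05 ± 1.17 and DNMT3B at 5.17 ± 0.321. TET2 at 3 ± 0.135, DNMT3A at 2.93 ± 0.11 and TET1 at 0.207 ± 0.0432 RPKM were lowest. The libraries of EED and DNMT1, of EZH2 and DNMT3B, and of TET2 and DNMT3A overlapped, while the other neighbours in this order did not. SUZ12 stayed highest and TET1 lowest in all 5 conditions, whereas DNMT3B ranked 7 in sgNeg and 5 with either WDR77 guide, where its libraries overlapped those of EZH2. These lengths count every annotated exon, so a gene with many rarely used exons, such as DNMT1 with 15379 bases, is placed lower than its main transcript would be.

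**Figure D1:**
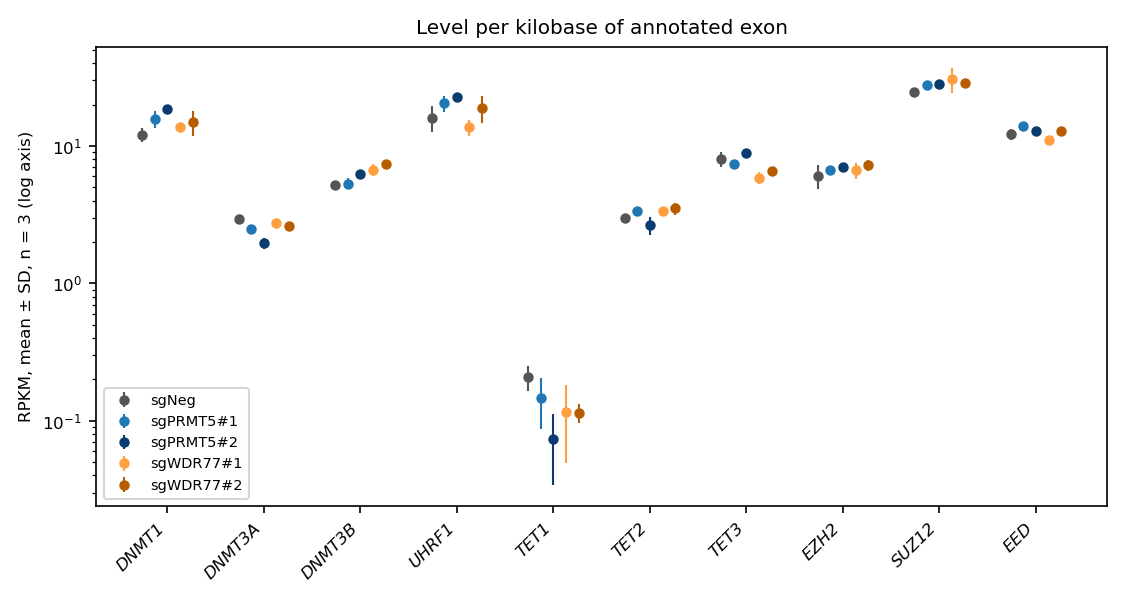
Levels per kilobase of annotated exon (RPKM, log axis) of the 10 genes on the horizontal axis, as mean ± SD of 3 libraries for each of the 5 conditions. SUZ12 is highest and TET1 lowest in every condition, at 0.207 RPKM for TET1 in sgNeg against 24.7 for SUZ12.

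The test over all 5 conditions asked which of these genes differed anywhere. It called 6 of the 10, namely DNMT1, DNMT3A, DNMT3B, UHRF1, TET2 and TET3, against 35.8% of all genes tested. TET3 had the lowest adjusted p (0.00125), followed by UHRF1 (0.00318), DNMT3A (0.00345), DNMT3B (0.00369) and DNMT1 (0.00424). TET2 passed narrowly at an adjusted p of 0.0449, lost the call under 3 of 7 alternative settings and kept it without only 3 of the 15 libraries in turn, with adjusted p from 0.0209 to 0.208. EED (adjusted p = 0.0633), TET1 (0.184), SUZ12 (0.231) and EZH2 (0.373) were not called, so no core subunit of PRC2 passed the test.

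**Figure D2:**
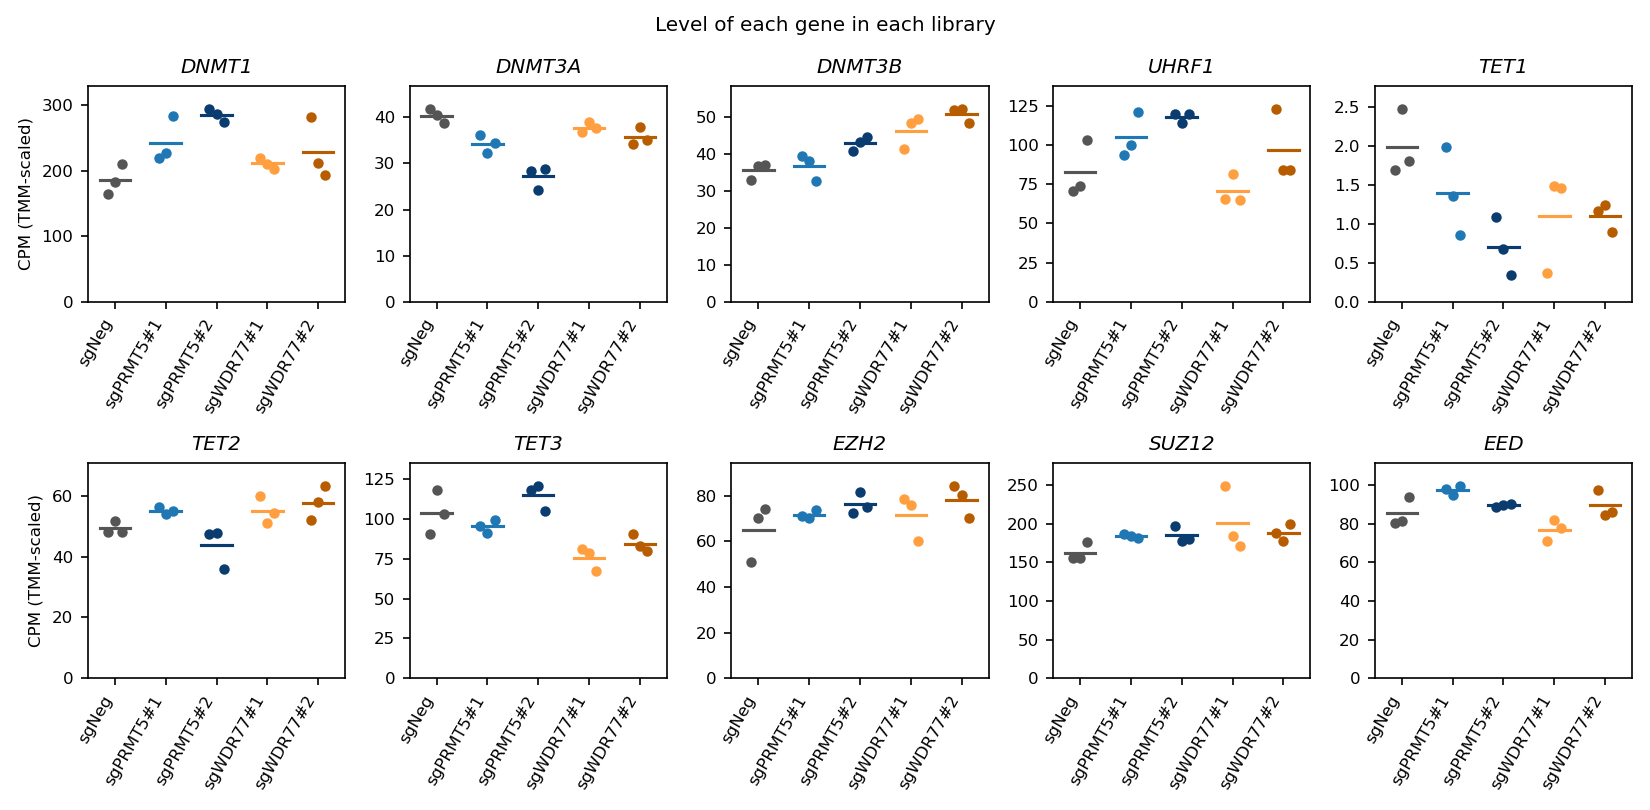
CPM (TMM-scaled, vertical axes starting at 0) of each of the 10 genes in each of the 15 libraries; points are libraries, lines are means of the 3 replicates, and the horizontal axis gives the condition. DNMT1 rises and DNMT3A falls toward sgPRMT5#2, DNMT3B is highest and TET3 lowest in the WDR77 conditions, and the libraries of EZH2 overlap between sgNeg and every guide.

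DNMT1, which copies methylation onto the new DNA strand, was read at 165, 183 and 210 CPM in sgNeg, at 220, 227 and 283 under sgPRMT5#1 and at 294, 287 and 275 under sgPRMT5#2. The sgWDR77#1 libraries read 220, 210 and 203 CPM and those of sgWDR77#2 read 282, 212 and 193. Both PRMT5 guides lay above every sgNeg library, while the libraries of either WDR77 guide overlapped those of sgNeg. With sgPRMT5#2, DNMT1 was 1.54-fold higher (log2 0.62, SE 0.121, 95% interval 0.37 to 0.88, adjusted p = 0.00053). With sgPRMT5#1 the difference was 0.38 (interval 0.13 to 0.64, adjusted p = 0.0926), which did not pass. The mean of both PRMT5 guides was 0.5 above sgNeg on the log2 scale (SE 0.106, adjusted p = 0.00163), and that of both WDR77 guides was 0.24 (adjusted p = 0.186). S1PR2 shares 83 bases of exon with DNMT1 on the same strand and held 2.51% as many reads.

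UHRF1, the partner that recruits DNMT1, was higher in PRMT5KO as well. Its levels were 70.8, 73.8 and 103 CPM in sgNeg, 93.8, 100 and 121 under sgPRMT5#1 and 120, 114 and 120 under sgPRMT5#2. The sgWDR77#1 libraries read 65.6, 81.3 and 65.1 CPM and those of sgWDR77#2 read 123, 84.3 and 84.1. The 3 libraries of sgPRMT5#2 lay above all of sgNeg, those of sgPRMT5#1 overlapped them through sgNeg replicate 3, and both WDR77 guides overlapped sgNeg as well. UHRF1 was 1.45-fold higher with sgPRMT5#2 (log2 0.54, SE 0.146, adjusted p = 0.008), with an adjusted p of 0.0643 once sgNeg replicate 1 was left out. For PRMT5KO against sgNeg the log2 difference was 0.45 (adjusted p = 0.0151), and it was 0.32 (adjusted p = 0.143) without sgNeg replicate 1 and 0.37 (adjusted p = 0.105) without sgNeg replicate 2. The WDR77 guides differed from each other by 0.44 (interval 0.12 to 0.75), with all sgWDR77#2 libraries above those of sgWDR77#1, but the adjusted p of 0.118 missed the threshold.

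The promoters of these genes were read for 4 forms of the E2F motif, TTTGGCGC, TTTGCCGC, TTTCGCGC and TTTCCCGC, on both strands, because UHRF1 and DNMT1 are genes of the DNA replication phase and E2F factors drive many such genes. All 10 genes matched RefSeq's promoter table (GRCh38.p14), with 22 start sites among them, and the search covered the 250 bases before each start. A match stood before 3 of the 22 starts, in UHRF1 and SUZ12, while 2.79% of all 35116 promoters in the table held at least 1. The windows without an annotated exon are shown for both genes, on the plus strand and with the motif in capitals, UHRF1 from chr19:4909894-4910143 and SUZ12 from chr17:31936757-31937006.
UHRF1: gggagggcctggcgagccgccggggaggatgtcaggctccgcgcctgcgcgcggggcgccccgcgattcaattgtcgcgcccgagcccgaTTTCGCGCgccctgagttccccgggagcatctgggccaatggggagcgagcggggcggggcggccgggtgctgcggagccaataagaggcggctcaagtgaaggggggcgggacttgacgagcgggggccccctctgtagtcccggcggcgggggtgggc
SUZ12: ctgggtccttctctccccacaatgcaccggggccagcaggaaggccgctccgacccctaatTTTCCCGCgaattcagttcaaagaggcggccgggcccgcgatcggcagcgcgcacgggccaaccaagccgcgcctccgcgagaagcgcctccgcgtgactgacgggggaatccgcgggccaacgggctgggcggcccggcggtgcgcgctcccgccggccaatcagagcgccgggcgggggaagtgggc
The capitals begin 160 bases before this UHRF1 start and 189 bases before the SUZ12 start. At another UHRF1 start, TTTCCCGC lay on the minus strand 14 bases before it. The window of DNMT1 held none of these letters. A match is a description of letters and not of binding.

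DNMT3A, a de novo methyltransferase, went the other way. It stood at 41.8, 40.6 and 38.8 CPM in sgNeg, at 36.2, 32.3 and 34.4 under sgPRMT5#1 and at 28.4, 24.3 and 28.8 under sgPRMT5#2. The sgWDR77#1 libraries read 36.8, 39.1 and 37.6 CPM and those of sgWDR77#2 read 34.3, 38 and 35.1. Every library of both PRMT5 guides and of sgWDR77#2 lay below every sgNeg library, and those of sgPRMT5#2 lay below all others. DNMT3A fell to 67.2% of its sgNeg level with sgPRMT5#2 (log2 -0.57, SE 0.111, adjusted p = 0.000526), and PRMT5KO against sgNeg gave -0.41 (SE 0.0937, adjusted p = 0.00344). With sgPRMT5#1 the log2 difference was -0.24 (adjusted p = 0.26), and with WDR77KO it was -0.14 (adjusted p = 0.427). The call with sgPRMT5#2 held under all 8 alternative settings and without each of the 15 libraries in turn, as did that of DNMT1.

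DNMT3B, the other de novo methyltransferase, was the member that rose with both WDR77 guides. Its levels were 33, 36.7 and 37 CPM in sgNeg, 41.2, 48.3 and 49.4 under sgWDR77#1 and 51.8, 52.1 and 48.4 under sgWDR77#2. The sgPRMT5#1 libraries read 39.3, 38 and 32.7 CPM and those of sgPRMT5#2 read 40.7, 43.3 and 44.5. Both WDR77 guides and sgPRMT5#2 lay above all sgNeg libraries. DNMT3B was 1.3-fold higher with sgWDR77#1 (log2 0.38, SE 0.114, adjusted p = 0.0386) and 1.43-fold higher with sgWDR77#2 (log2 0.51, SE 0.112, adjusted p = 0.00779), and WDR77KO against sgNeg gave 0.45 (SE 0.0988, adjusted p = 0.00547). Without sgWDR77#1 replicate 1, the library that stood apart, these were 0.47 (adjusted p = 0.00949) with sgWDR77#1 and 0.49 (0.000915) in WDR77KO. The call with sgWDR77#1 was narrow. It was lost with no filter (adjusted p = 0.0697), with the compared groups alone (0.131), and without any 1 sgNeg library, sgPRMT5#2 replicate 2, replicate 2 or 3 of sgWDR77#1, or replicate 2 or 3 of sgWDR77#2, with adjusted p from 0.053 to 0.167 among those. The call with sgWDR77#2 was lost without sgNeg replicate 1 (adjusted p = 0.0694) and without sgWDR77#2 replicate 2 (adjusted p = 0.0589), and that of WDR77KO without sgNeg replicate 1 (adjusted p = 0.0655). With sgPRMT5#2 the log2 difference was 0.27 (adjusted p = 0.0751), which passed with upper quartile scaling (0.0233) and with the compared groups alone (0.0416), and PRMT5KO gave 0.16 (adjusted p = 0.274).

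TET3 was the most abundant of the 3 methylcytosine oxidases and was lower with WDR77 guides. It was read at 90.6, 118 and 103 CPM in sgNeg, at 81.1, 78.9 and 67.5 under sgWDR77#1 and at 90.9, 83 and 79.7 under sgWDR77#2. The sgPRMT5#1 libraries read 95.6, 91.2 and 99.7 CPM and those of sgPRMT5#2 read 118, 121 and 105. All sgWDR77#1 libraries lay below all sgNeg libraries, and every PRMT5 guide library lay above every WDR77 guide library. TET3 fell to 0.732 of its sgNeg level with sgWDR77#1 (log2 -0.45, SE 0.109, adjusted p = 0.0113), and WDR77KO against sgNeg gave -0.37 (SE 0.0931, adjusted p = 0.0141). Leaving out sgWDR77#1 replicate 1 gave -0.49 (adjusted p = 0.00757) and -0.39 (0.00516). Without sgNeg replicate 2, its highest control library, these became -0.35 (adjusted p = 0.0537) and -0.28 (adjusted p = 0.0973). Both calls were also lost with the compared groups alone (adjusted p = 0.129 and 0.0587), and that of WDR77KO with upper quartile scaling (0.0505) and with guides pooled (0.094). With sgWDR77#2 the log2 difference was -0.29 (adjusted p = 0.128, and 0.0481 without sgNeg replicate 1), and PRMT5KO gave 0.02 (interval -0.17 to 0.21), a value whose sign turned with RLE size factors and with library totals alone.

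TET2 moved little and in no common direction. It ranged from 48.1 to 51.9 CPM in sgNeg and from 35.9 to 63.4 over all libraries. It passed with no guide against sgNeg, with log2 differences from -0.18 in sgPRMT5#2 to 0.22 in sgWDR77#2. The 2 PRMT5 guides stood 0.35 apart (adjusted p = 0.0748), with every sgPRMT5#2 library below every sgPRMT5#1 library. PRMT5KO against WDR77KO gave a log2 difference of -0.2 (adjusted p = 0.074), which passed with RLE size factors (0.0473), with library totals alone (0.0202), and without sgPRMT5#2 replicate 1 (0.0471) or sgWDR77#2 replicate 1 (0.0321). TET1 was barely expressed, at 10, 15 and 10 reads in sgNeg, 13, 8 and 5 under sgPRMT5#1 and 7, 4 and 2 under sgPRMT5#2. The sgWDR77#1 libraries held 2, 8 and 8 of its reads and those of sgWDR77#2 held 6, 7 and 5. All sgPRMT5#2 libraries were below all of sgNeg, as were those of both WDR77 guides. With sgPRMT5#2 the log2 fold change was -1.5 with a wide interval, -2.59 to -0.4 (adjusted p = 0.0345), and it did not pass without sgNeg replicate 2 (adjusted p = 0.0976), sgPRMT5#2 replicate 2 (0.0821) or sgPRMT5#2 replicate 3 (0.146). PRMT5KO gave -1.01 (adjusted p = 0.0731), which passed with the compared groups alone (0.0488) and without sgWDR77#1 replicate 1 (0.0366). At this depth a change in TET1 rests on a few reads, and the test over all 5 conditions did not call it.

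The core subunits of PRC2 gave no call in any of the 10 comparisons. EZH2, the catalytic subunit, averaged 65.2 ± 12.6 CPM (SD, n = 3) in sgNeg, 71.6 ± 1.82 under sgPRMT5#1 and 76.3 ± 4.79 under sgPRMT5#2. Its mean was 71.5 ± 10.1 CPM under sgWDR77#1 and 78.3 ± 7.35 under sgWDR77#2. Each guide stood above sgNeg in the mean, with log2 differences from 0.14 to 0.28, but the libraries overlapped for all 4 guides, and sgNeg ran from 50.8 to 74.4 CPM. Its PRMT5KO and WDR77KO differed by -0.01, with an interval from -0.2 to 0.18. SUZ12, the subunit that holds the complex together, had log2 differences from 0.19 to 0.3, and its sgPRMT5#1, sgPRMT5#2 and sgWDR77#2 libraries lay above all sgNeg libraries without passing the test. Its adjusted p was lowest with sgWDR77#1 (0.0959), where replicate 1 read 249 CPM and the others 184 and 171. Without replicate 1 the difference was 0.14 (adjusted p = 0.317) there and 0.18 (0.0954) in WDR77KO, and without replicate 3 it passed in both (0.0213 and 0.0278). SUZ12 also passed in PRMT5KO with the compared groups alone (0.0428). SUZ12P1, a transcribed copy of part of SUZ12, held 3.42% as many reads, so how reads were shared between them is uncertain. EED, which reads the histone mark, had log2 differences from -0.15 in sgWDR77#1 to 0.2 in sgPRMT5#1. PRMT5KO exceeded WDR77KO by 0.17 for EED (adjusted p = 0.0591), which passed without sgWDR77#1 replicate 2 (0.048) or sgWDR77#2 replicate 1 (0.0271). An antisense gene covers 3.16% of EED's exons, so the level of EED may also depend on the strand setting, which was not tested. A p that misses the threshold does not show equal levels: the intervals allow changes of up to 0.55 on the log2 scale for EZH2 with sgWDR77#2 and 0.53 for SUZ12 with sgWDR77#1.

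**Figure D3:**
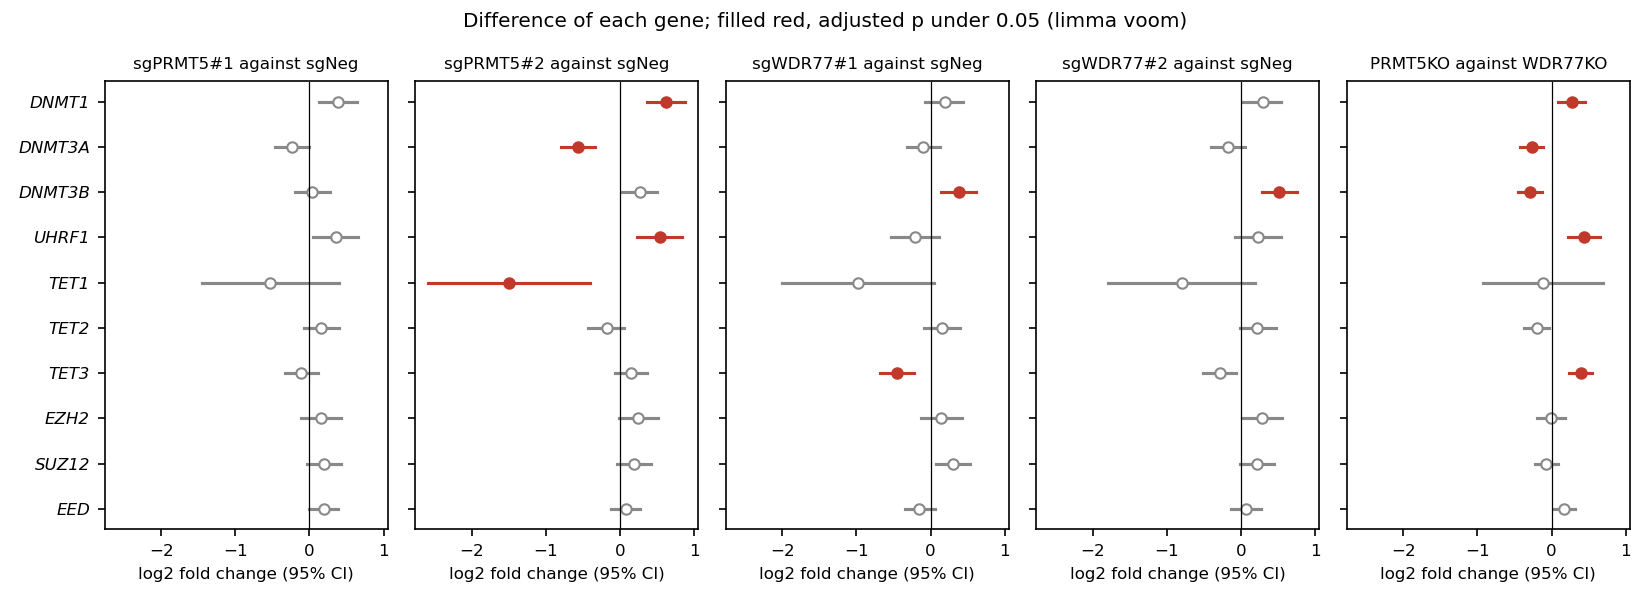
Log2 fold change (horizontal axes) of the 10 genes for each guide against sgNeg and for PRMT5KO against WDR77KO, with 95% intervals from limma voom; filled red points have an adjusted p under 0.05. No gene is filled for sgPRMT5#1 and 4 are for sgPRMT5#2, among them DNMT1 at 0.62 and DNMT3A at -0.57, while the intervals of TET1 are the widest.

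The members called were counted for each comparison. With sgPRMT5#1, no member was called in either direction (all genes 1.26% higher and 1.61% lower), 4 had an unadjusted p under 0.05 (17.5% of all genes did), and limma-trend also called 0. With sgPRMT5#2, 2 of 10 were higher and 2 lower, against 16.3% and 14.7% of all genes. With sgWDR77#1, 1 was higher (all genes 3.58%) and 1 lower (5.90%), and with sgWDR77#2, 1 was higher (1.81%) and 0 lower (2.98%). PRMT5KO against sgNeg called 2 higher (12.0%) and 1 lower (10.8%), and WDR77KO called 1 higher (2.89%) and 1 lower (5.55%). These comparisons share the sgNeg libraries, so they are not independent of each other. The median log2 fold change of the 10 genes was 0.15 for PRMT5KO and 0.1 for WDR77KO, against 0.007 and 0.002 over all genes tested.

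The 2 guides of a gene were compared to ask whether they gave the same levels. No member differed between sgPRMT5#2 and sgPRMT5#1 (7.53% of all genes did) or between sgWDR77#2 and sgWDR77#1 (2.41%) by limma voom, and limma-trend called 0 in both. An unadjusted p under 0.05 was found for 3 members between the PRMT5 guides and for 2 between the WDR77 guides, where 23.9% and 18.9% of all genes had one. When only the 2 PRMT5 guides entered the fit, 4 members passed, namely DNMT1 (log2 0.25, adjusted p = 0.0315), DNMT3A (-0.33, 0.0423), TET2 (-0.34, 0.0303) and TET3 (0.27, 0.0224), in a fit that called 19.2% of all genes. DNMT3A (0.0318) and TET2 (0.0314) also passed without sgWDR77#1 replicate 1. A call with sgPRMT5#2 but not with sgPRMT5#1 is therefore not shown to differ between the guides in the fit over all libraries.

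PRMT5KO and WDR77KO were set against each other without sgNeg, to ask where guides against PRMT5 and guides against WDR77 gave different levels. Here 5 of the 10 genes were called, against 27.1% of all genes in either direction. The spread in this test was that among replicates of a guide, not between guides. PRMT5KO was higher for UHRF1 (log2 0.44, SE 0.105, adjusted p = 0.00382), TET3 (0.39, SE 0.0764, adjusted p = 0.000808) and DNMT1 (0.27, SE 0.0856, adjusted p = 0.0238). It was lower for DNMT3B (-0.29, SE 0.0783, adjusted p = 0.00869) and DNMT3A (-0.27, SE 0.079, adjusted p = 0.0146). In the mean of both guides, the maintenance pair, DNMT1 and UHRF1, was thus higher and both de novo enzymes lower in PRMT5KO than in WDR77KO. Guide by guide this was uneven. Mean CPM with sgPRMT5#1 and sgWDR77#2 was 243 and 229 for DNMT1, 105 and 97 for UHRF1 and 34.3 and 35.8 for DNMT3A. For DNMT3B it was 36.7 and 50.8. Against sgNeg, DNMT3B was not lower in PRMT5KO (log2 0.16, adjusted p = 0.274). TET3 alone of these 5 separated all 6 PRMT5 guide libraries from all 6 WDR77 guide libraries. The DNMT1 call was lost with library totals alone (adjusted p = 0.0744) and with guides pooled (0.0739), and without sgPRMT5#1 replicate 3, any 1 library of sgPRMT5#2, or replicate 2 or 3 of sgWDR77#2, with adjusted p from 0.0501 to 0.0823 among those. DNMT3A was lost with guides pooled (adjusted p = 0.0782), and UHRF1, DNMT3B and TET3 passed in all 9 alternative settings and without each library in turn. Without sgWDR77#1 replicate 1 the same 5 were called.

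Among cofactors and readers of DNA methylation, 14 of 15 genes were tested. PRMT5KO called 2 higher and none lower, where 12.0% of all genes were higher and 10.8% lower, and WDR77KO called 1 higher and 1 lower, where 2.89% were higher and 5.55% lower. UHRF2, the paralog of UHRF1, stood at 75.3, 79.5 and 70.7 CPM in sgNeg, 93.7, 100 and 94.9 in sgWDR77#1 and 98, 99.8 and 97.9 in sgWDR77#2. It was higher with sgWDR77#1 (log2 0.36, adjusted p = 0.0188) and sgWDR77#2 (0.39, adjusted p = 0.0143), and also with sgPRMT5#2 (0.66). The sgWDR77#1 call was lost with the compared groups alone and without sgNeg replicate 1, sgNeg replicate 3 or sgWDR77#1 replicate 2 (adjusted p up to 0.122), and the sgWDR77#2 call without sgNeg replicate 1, sgNeg replicate 3 or any sgWDR77#2 replicate (up to 0.106). For WDR77KO it was lost without sgNeg replicate 3 (0.068). CDCA7L, a paralog of the HELLS cofactor CDCA7, was lower with sgWDR77#1 (-0.75, adjusted p = 0.000797) and sgWDR77#2 (-0.64, adjusted p = 0.00428), while PRMT5KO gave -0.21 without a call. CDCA7L also differed between the knockouts by 0.48. The 2 called in PRMT5KO were UHRF2 and MBD1, and MBD1 was lost with guides pooled (adjusted p = 0.0974). None was called with sgPRMT5#1 (all genes 1.26% higher and 1.61% lower), and sgPRMT5#2 called 3 higher and 1 lower (16.3% and 14.7%). UHRF2, MBD1 and CDCA7 differed between the PRMT5 guides in every alternative (adjusted p up to 0.0448). MBD1 and CDCA7 were named after their values were seen.

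The demethylation partners, genes that act with TET enzymes or supply or use their cofactors, had 9 of 10 tested. PRMT5KO called 1 higher and 4 lower (all genes 12.0% and 10.8%), and WDR77KO called 1 higher and 0 lower (2.89% and 5.55%). GADD45A, a stress-induced gene linked to active demethylation and to growth arrest, was read at 39.1, 51.3 and 55.5 CPM in sgNeg and at 153, 149 and 153 in sgPRMT5#2. It was higher with all 4 guides, at log2 differences of 0.91 (adjusted p = 9e-05), 1.65 (1.2e-09), 0.74 (0.000409) and 1 (1.04e-05) for guides 1 and 2 of PRMT5 and then of WDR77. IDH2, which makes the 2-oxoglutarate that TET enzymes need, fell from 106, 73.3 and 78.5 CPM in sgNeg to 19.3, 22.1 and 20.6 in sgPRMT5#2 (log2 -2.04, adjusted p = 2.77e-07). With sgPRMT5#1 it was -0.68 (adjusted p = 0.0355), a call lost without sgNeg replicate 1 or any sgPRMT5#1 replicate and with the replicate block, limma-trend or no filter, with adjusted p up to 0.217. CXXC5, a CXXC domain protein tied to TET2, was lower with sgPRMT5#1 (-0.86, adjusted p = 0.0162) and sgPRMT5#2 (-1.83, adjusted p = 5.66e-06) and unmoved in the mean with WDR77 guides (-0.02 and 0.02). Its sgPRMT5#1 call was lost without sgNeg replicate 1, sgPRMT5#1 replicate 2 or sgPRMT5#1 replicate 3, with adjusted p up to 0.117. PRMT5KO also called CXXC4 (-1.38) and IDH1 (-0.6) lower, both named after their values were seen. Neither was called with sgPRMT5#1, where IDH1 stood at 87.7% of sgNeg against 49.4% with sgPRMT5#2, and for IDH1 the guides differed in every alternative (adjusted p up to 0.0013).

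Of 11 PRC2 partners 9 were tested, and PRMT5KO called only PHF19 (log2 0.51), a subunit that guides PRC2 to chromatin, while WDR77KO called none (all genes 12.0% higher and 10.8% lower in PRMT5KO, 2.89% and 5.55% in WDR77KO). All 21 subunits of Polycomb repressive complex 1 (PRC1), which ubiquitinates histone H2A and reads the PRC2 mark, were tested. WDR77KO called 1 of them, CBX6, which was lower with sgWDR77#1 (-0.32, adjusted p = 0.0314) and sgWDR77#2 (-0.41, adjusted p = 0.00882). The sgWDR77#1 call of CBX6 was lost with upper quartile scaling, with the compared groups alone, and without sgNeg replicate 2, sgNeg replicate 3 or sgWDR77#1 replicate 1, with adjusted p up to 0.226, and that of WDR77KO with guides pooled (0.0546). PRMT5KO called 2 PRC1 genes lower, CBX7 (-0.61) and KDM2B (-0.25), of which CBX7 was lost without sgNeg replicate 1 (adjusted p up to 0.11) and KDM2B without sgNeg replicate 2 or sgNeg replicate 3, with upper quartile scaling and with guides pooled (up to 0.0804). Of 5 erasers tested, PRMT5KO called BAP1 (0.37), the H2A deubiquitinase, a call that was lost with library totals alone, with guides pooled, and without sgNeg replicate 1, sgNeg replicate 2, sgPRMT5#1 replicate 3 or sgPRMT5#2 replicate 3 (adjusted p up to 0.127). PHF19, CBX7, KDM2B and BAP1 were named after their values were seen, and all 4 were called with sgPRMT5#2 but not with sgPRMT5#1.

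**Figure D4:**
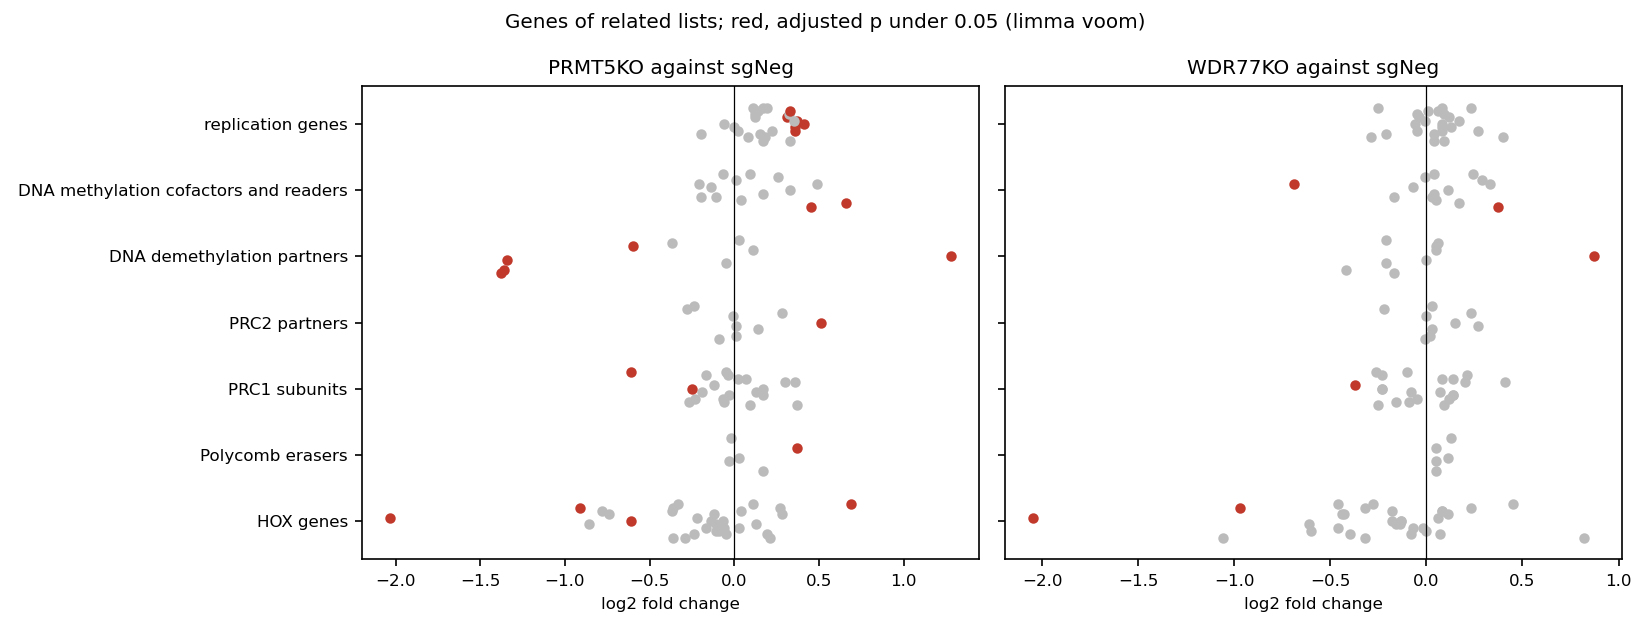
Log2 fold change (horizontal axes) of the tested genes of 7 related lists for PRMT5KO and WDR77KO against sgNeg; each point is a gene, red where the adjusted p from limma voom was under 0.05, and vertical offsets within a list only separate points. Demethylation partners reach from -1.38 (CXXC4) to 1.28 (GADD45A) in PRMT5KO, and the replication genes called there all lie to the right.

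Genes that DNA methylation or Polycomb commonly keep silent were read beside the enzymes. Of 24 germline genes that depend on DNA methylation for silencing, 22 were too low to test, 16 had no read in any library and none of the 22 exceeded 7 reads in a library. The tested ones were MAGEA4, already at 268 CPM in sgNeg and lower in WDR77KO (log2 -0.26), and TEX14, which was not called in any comparison and whose log2 difference of 2 with sgPRMT5#2 had an adjusted p of 0.0552. The MAGEA4 call was lost with upper quartile scaling, with the compared groups alone, with guides pooled, and without sgNeg replicate 1, sgNeg replicate 3, sgPRMT5#2 replicate 1 or sgPRMT5#2 replicate 3 (adjusted p up to 0.187). Of 39 HOX genes, classical Polycomb targets, 31 were tested. PRMT5KO called 1 higher and 3 lower (all genes 12.0% and 10.8%) and WDR77KO called 0 higher and 2 lower (2.89% and 5.55%), with list medians of -0.12 and -0.16. HOXA13 (-2.03 and -2.05) and HOXD13 (-0.91 and -0.97) were lower in both and were named after their values were seen, and HOXA13 averaged only 1.38 CPM in sgNeg. In WDR77KO, HOXA13 was lost with the replicate block, limma-trend or guides pooled and without sgWDR77#2 replicate 2 (adjusted p up to 0.0911), and HOXD13 with guides pooled and without sgNeg replicate 2 (up to 0.058). The others called in PRMT5KO, also named after their values were seen, were HOXB13 (-0.61), lost under 2 of 9 settings and without 5 of the 15 libraries in turn, and HOXC9 (0.69), lost under 6 settings and without 13 libraries. All 4 of these HOX genes were called with sgPRMT5#2 and none with sgPRMT5#1. Guide sgWDR77#1 called only HOXC13, which was higher (all genes 3.58%) and was named after its values were seen. Guide sgWDR77#2 called only HOXD13, which was lower (all genes 2.98%). Both calls were lost under some alternatives (adjusted p up to 0.146 and 0.147), and HOXA13 was called with neither WDR77 guide.

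DNMT1 and UHRF1 are copied into RNA mainly in cells preparing to replicate DNA, so 24 replication genes were set beside them. PRMT5KO called 6 higher and 0 lower (median log2 0.17), where 12.0% of all genes were higher and 10.8% lower. WDR77KO called none (median 0.07), where 2.89% were higher and 5.55% lower. Guide by guide, sgPRMT5#2 called 7 higher and 1 lower (all genes 16.3% and 14.7%), with a median of 0.21, and sgWDR77#1 called 0 higher and 2 lower (3.58% and 5.90%), with a median of -0.11. Neither sgPRMT5#1 (median 0.18) nor sgWDR77#2 (0.22) called any in either direction, and between the WDR77 guides 2 were called (all genes 2.41%), with a median of 0.23. These were MCM2 and TK1, named after their values were seen. MCM2 was lost under 5 of 8 settings and without 9 of the 15 libraries in turn, and TK1 under 3 settings and without 6. The genes called lower against sgNeg, named after their values were seen, were LIG1 with sgPRMT5#2 (-0.35, adjusted p = 0.04) and MCM7 (-0.49, 0.0128) and RRM1 (-0.35, 0.0323) with sgWDR77#1. Each was lost under some alternatives, with adjusted p up to 0.149, 0.0694 and 0.204. Of the 7 higher with sgPRMT5#2, also named after their values were seen, only CDC6 held in every alternative. CCNE1 was lost under 5 of 8 settings and without 14 libraries, and RRM2 under 2 settings and without 9. MCM5 was lost with library totals alone and without 5 libraries, GINS2 without 5, MCM3 without 3 and FEN1 without 2. PRMT5KO against WDR77KO called 9 higher and 0 lower, where 27.1% of all genes were called in either direction. Of these 9, named after their values were seen, 7 were lost with guides pooled (MCM2, MCM3, MCM5, CDC6, GINS2, CCNE1 and FEN1, with adjusted p over all alternatives up to 0.13), and MCM7 (0.47) and RRM1 (0.36) were kept. MCM3 and MCM5 were also lost without 8 of the 15 libraries in turn, CCNE1 without 9 and FEN1 without 3. Among the 6 called against sgNeg, named after their values were seen, CDC6 (0.41), which loads the replicative helicase, and GINS2 (0.37) had the largest differences, and MCM3, MCM5, RRM2 and FEN1 lay between 0.31 and 0.36. None of the 6 held its call against sgNeg without sgNeg replicate 1 or without sgNeg replicate 2, and the largest adjusted p over all alternatives was 0.0601 for CDC6 and 0.31 for GINS2. In bulk RNA, a different number of cells in the replication phase and a different amount of RNA per cell cannot be told apart. By flow cytometry of HSC-5 cells, the study reported arrest in the G1 phase, before DNA replication, after loss of either gene. How that relates to these RNA levels was not tested. Of 9 methionine cycle genes, which supply the methyl donor, PRMT5KO called 2 higher and 1 lower (all genes 12.0% and 10.8%) and WDR77KO called none (2.89% and 5.55%). MAT2A, which makes S-adenosylmethionine, was 0.42 higher in PRMT5KO and was named after its values were seen, with an adjusted p of 0.12 without sgNeg replicate 1, and sgPRMT5#1 did not call it.

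Likeness was measured as the root mean square difference of the 4 log2 fold changes against sgNeg, over 8955 other genes with a mean of at least 10 CPM. It was taken for members that passed the test over all conditions and reached 0.5 with a guide. Nearest to UHRF1 was PSMA5 at 0.0181, followed by EFTUD2 at 0.0422 and DCAF13 at 0.0428. Nearest to DNMT1 were WDR1 at 0.0312, KPNB1 at 0.0351 and USP15 at 0.0359, and 194 genes lay within 0.1 of it. Nearest to DNMT3A were TSPAN6 at 0.0263, KIAA0319L at 0.0309 and TSPAN31 at 0.0329. DNMT3B had the least company, with RAB11FIP3 at 0.0656, SUOX at 0.0744 and EIF2AK3 at 0.0789 and 6 genes within 0.1. The profiles share the sgNeg libraries, and so does any likeness between them.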

How the data were processed

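RNA from 15 HSC-5 libraries was sequenced from a single end. The authors used STAR on hg38 and then HTSeq to get gene counts, and DESeq2 for their own tests, which was not used here. In the deposited tables each value (unit type other) is a whole-number read count, and the strand setting and annotation release were not given in the sources used here. The labels and the study's methods name different library kits. Reads outside single genes made up 20.9% to 25.5% of a library and were left out. Counts were scaled by TMM (coded by hand, trims 0.3 and 0.05), genes with a mean normalized count of at least 3 were kept, and limma 3.58.1 (voom, R 4.3.3) fitted 1 mean per condition over all libraries, with 10 residual degrees of freedom and Benjamini-Hochberg adjustment over all 14061 genes; calls had an adjusted p under 0.05. The functions were checked on simulated data. No replicate pair agreed within sampling noise (chi-square per degree of freedom 13.7 and 19.4 for sgWDR77#1 replicate 1, otherwise 1.58 to 9.94). Annotation, exon lengths and overlaps came from GENCODE for GRCh38. The members and lists were chosen with earlier results of these data known. From each list, up to 3 genes per direction past the threshold with both guides of a gene were named, and for members the 3 nearest profiles. Among the markers, KRT17, CDH5, VWF, PMEL and COL1A1 fell outside this rule, and their calls were named after their values were seen. Alternatives were other scalings and filters, limma-trend, a replicate block, the compared groups alone, pooled guides, and leaving out each library.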

Additional observations from a re-analysis of the deposited data

Results flagged for a closer look

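The outcomes of losing PRMT5 and of losing WDR77 differed for 5 of the 10 genes, by a test of the difference itself (limma voom, PRMT5KO against WDR77KO, 6 libraries each), against 27.1% of all genes tested. UHRF1 differed by 0.44 on the log2 scale, TET3 by 0.39 and DNMT1 by 0.27, all higher in PRMT5KO. DNMT3B differed by -0.29 and DNMT3A by -0.27, both lower in PRMT5KO. The calls of DNMT1 and DNMT3A were lost with guides pooled (adjusted p = 0.0739 and 0.0782), and that of DNMT1 also with library totals alone (0.0744) and without 6 of the 15 libraries in turn (0.0501 to 0.0823). UHRF1, TET3 and DNMT3B passed in all 9 alternative settings and without each library in turn. Of these settings, only that with guides pooled let the spread between guides enter. For UHRF1 the WDR77 guides stood 0.44 apart (adjusted p = 0.118), as far as PRMT5KO and WDR77KO did. The cause of these differences was not tested.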

How the results depend on the processing

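Of 810 values of the members under 9 alternative settings, 780 kept their direction and side of the threshold, 12 were no longer past it, 10 were newly past it and 8 changed sign, none of them called either way. The cause of these changes was not tested. With library totals alone the log2 differences that changed sign were -0.02 for DNMT3B in sgPRMT5#1, -0.01 for EED and -0.06 for TET3 in sgPRMT5#2 and PRMT5KO respectively, 0 for UHRF1 in WDR77KO and -0.02 for SUZ12 between the PRMT5 guides. With RLE size factors TET3 in PRMT5KO was -0.01, and with upper quartile scaling TET2 in PRMT5KO was 0.04 and EED in WDR77KO 0.

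Without 1 library in turn, signs changed for DNMT3B (-0.04 to 0.09) and EZH2 (-0.05 to 0.21) in sgPRMT5#1, EZH2 in sgWDR77#1 (-0.04 to 0.26), EED in sgWDR77#2 (-0.02 to 0.1), TET2 (-0.07 to 0.03) and TET3 (-0.1 to 0.1) in PRMT5KO, and UHRF1 in WDR77KO (-0.11 to 0.14). Between guides they did for SUZ12 of PRMT5 (-0.04 to 0.04), and for DNMT1 (-0.07 to 0.19), TET1 (-0.42 to 0.47), TET2 (-0.02 to 0.13) and SUZ12 (-0.19 to 0.07) of WDR77. In PRMT5KO against WDR77KO they did for TET1 (-0.43 to 0.05) and EZH2 (-0.09 to 0.01).

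Members called in sgPRMT5#2 went from 4 to 5 with upper quartile scaling and with the compared groups alone (DNMT3B, adjusted p = 0.0233 and 0.0416), and to 3 with the filter of at least 10, which left out TET1. In sgWDR77#1 they went from 2 to 1 with no filter and to 0 with the compared groups alone. In WDR77KO 2 became 1 with upper quartile scaling, with the compared groups alone and with guides pooled. With the compared groups alone PRMT5KO gave 5 in place of 3 and the PRMT5 guide pair 4 in place of 0, and with guides pooled PRMT5KO against WDR77KO gave 3 in place of 5, and 6 with RLE size factors (TET2, 0.0473). Over all conditions 6 became 5 with upper quartile scaling, no filter and the replicate block, each time by loss of TET2. Without 1 library the counts ran from 0 to 0 (sgPRMT5#1), 3 to 4 (sgPRMT5#2), 0 to 2 (sgWDR77#1), 0 to 1 (sgWDR77#2), 2 to 4 (PRMT5KO), 1 to 3 (WDR77KO), 0 to 2 and 0 to 0 (guide pairs), 4 to 7 (PRMT5KO against WDR77KO) and 5 to 6 (all conditions).

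In the labels, replicates share only a number. Deviations from the group mean had a median correlation of -0.00382 over 30 same-numbered pairs (-0.321 to 0.262). Over 60 other pairs it was 0.00431 (-0.249 to 0.445). The highest joined sgPRMT5#1 replicate 3 and sgWDR77#2 replicate 1, and these had 0.262 and 0.257 with sgNeg replicate 3. Each of these libraries had the highest DNMT1 and UHRF1 level of its group, and the cause was not tested. With a replicate block the calls differed in TET2 over all conditions (adjusted p = 0.0638). Scaling moved the share of calls that were higher by over 10 points, with library totals alone from 43.8% to 27.1% in sgPRMT5#1, 52.6% to 37.9% in sgPRMT5#2, 52.7% to 34.2% in PRMT5KO, 76.4% to 59.8% between the WDR77 guides and 57.8% to 41% in PRMT5KO against WDR77KO. With upper quartile scaling it went to 62.9% in sgPRMT5#2, from 37.7% to 52% in sgWDR77#1, from 34.3% to 45% in WDR77KO and from 47.1% to 59.1% between the PRMT5 guides.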
